A study of Mus musculus with 4 samples.

Results

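The region described here is a window of 19.9 Mb on mouse chromosome 4 (mm10, chr4:125000000-144900000), chosen to lie over proximal parts of the insulin-dependent diabetes (Idd) intervals Idd9 and Idd11. Members are all strain-enriched chromatin regions whose midpoint falls in the window. They numbered 460 of the 31315 regions in the series. Of the members, 157 were H3K4me3 regions enriched in NOD, 107 were H3K4me3 regions enriched in B6, 79 were H3K27ac regions enriched in NOD and 117 were H3K27ac regions enriched in B6. The study compared embryonic stem (ES) cells of the diabetes-prone NOD strain with ES cells of the diabetes-resistant C57BL/6 (B6) strain by chromatin immunoprecipitation and sequencing (ChIP-Seq). Both were derived from blastocysts and, per the study's methods, grown in 2i medium, which holds a MEK inhibitor and a GSK3 inhibitor. No allele was altered and no agent was compared, and which line of a strain gave each library is not given in the sources used here. There was 1 library for each strain and mark, so no spread between replicates could be measured, and all intervals below cover counting error only. With 1 library a group, differences between strains cannot be told apart from differences between the libraries.

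Idd intervals are stretches of the genome in which NOD alleles change the frequency of autoimmune diabetes in crosses and congenic mice. Idd9 is a composite interval, and the genes in it include several that act in immune cells, such as Lck, the kinase that starts T cell receptor signalling, and Laptm5, a lysosomal protein of blood cells that limits antigen receptor levels. H3K4me3, trimethylation of histone H3 at lysine 4, marks promoters. H3K27ac, acetylation of histone H3 at lysine 27, marks enhancers and active promoters.

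To show regions with large differences in sequence, the reference bases at the centre of 6 regions and upstream of 2 promoters are given here, each 5′ to 3′, with CG dinucleotides in capitals. The region sequences are 300 bases of the plus strand of the mm10 reference, which is a B6 genome, so NOD alleles are not shown. The first is the overlap of both marks in B6 upstream of Xkr8, a scramblase that exposes phosphatidylserine on dying cells (chr4:132737800-132738099). The next is the overlap of both marks in NOD upstream of Pef1, which encodes a calcium-binding protein (chr4:130102786-130103085). The Dlgap3 intron (chr4:127197769-127198068) held B6 tags and no NOD tags, and the Gm10570 intron (chr4:130306905-130307204) held NOD tags and no B6 tags. The Laptm5 intron (chr4:130914573-130914872) is the centre of a B6 H3K4me3 region inside the H3K27ac region with the highest B6 score of the window, and the Fgr intron (chr4:132993757-132994056) lies in the region with the highest NOD score. The promoters are the 250 bases before the start of Zc3h12a, on the minus strand (chr4:125127882-125128131), and of Wnt4, on the plus strand (chr4:137277385-137277634), from RefSeq on GRCm38.p6, the same build.
Xkr8 upstream: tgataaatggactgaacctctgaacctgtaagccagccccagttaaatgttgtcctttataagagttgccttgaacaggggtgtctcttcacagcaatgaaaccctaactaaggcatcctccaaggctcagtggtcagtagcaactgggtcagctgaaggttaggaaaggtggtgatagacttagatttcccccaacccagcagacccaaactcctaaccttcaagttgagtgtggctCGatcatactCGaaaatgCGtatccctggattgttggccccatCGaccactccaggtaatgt
Pef1 upstream: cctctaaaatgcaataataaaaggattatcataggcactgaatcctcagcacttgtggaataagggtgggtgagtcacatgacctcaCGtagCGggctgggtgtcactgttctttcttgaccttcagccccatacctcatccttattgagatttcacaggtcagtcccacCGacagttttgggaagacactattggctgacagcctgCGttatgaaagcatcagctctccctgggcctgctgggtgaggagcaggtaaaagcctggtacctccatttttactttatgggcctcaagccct
Dlgap3 intron: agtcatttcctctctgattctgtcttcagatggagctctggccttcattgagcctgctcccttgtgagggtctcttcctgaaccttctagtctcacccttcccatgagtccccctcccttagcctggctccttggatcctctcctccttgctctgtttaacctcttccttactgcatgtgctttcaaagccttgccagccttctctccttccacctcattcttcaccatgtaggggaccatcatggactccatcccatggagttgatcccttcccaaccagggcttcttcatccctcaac
Laptm5: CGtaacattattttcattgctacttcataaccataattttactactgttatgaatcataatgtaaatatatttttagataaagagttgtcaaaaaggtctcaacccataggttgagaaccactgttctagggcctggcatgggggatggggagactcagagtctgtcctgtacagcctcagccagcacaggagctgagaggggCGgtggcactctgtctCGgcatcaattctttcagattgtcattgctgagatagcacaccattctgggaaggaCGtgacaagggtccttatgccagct
Gm10570: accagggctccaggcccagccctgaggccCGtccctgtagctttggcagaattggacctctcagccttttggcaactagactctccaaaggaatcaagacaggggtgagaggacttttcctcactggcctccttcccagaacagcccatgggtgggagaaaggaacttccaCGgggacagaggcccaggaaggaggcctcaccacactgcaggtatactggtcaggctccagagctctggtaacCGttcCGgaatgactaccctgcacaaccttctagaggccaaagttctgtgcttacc
Fgr intron: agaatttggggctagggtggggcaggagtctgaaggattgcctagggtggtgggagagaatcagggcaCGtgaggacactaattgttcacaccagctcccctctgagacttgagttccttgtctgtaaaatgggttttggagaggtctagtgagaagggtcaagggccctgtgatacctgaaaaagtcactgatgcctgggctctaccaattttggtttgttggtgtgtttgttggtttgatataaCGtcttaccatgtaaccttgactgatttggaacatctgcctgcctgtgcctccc
Zc3h12a promoter: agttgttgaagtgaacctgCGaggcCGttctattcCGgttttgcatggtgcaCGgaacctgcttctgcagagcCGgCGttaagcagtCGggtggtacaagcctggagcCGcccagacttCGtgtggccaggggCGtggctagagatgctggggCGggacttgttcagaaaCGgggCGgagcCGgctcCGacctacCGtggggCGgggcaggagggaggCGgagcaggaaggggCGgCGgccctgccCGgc
Wnt4 promoter: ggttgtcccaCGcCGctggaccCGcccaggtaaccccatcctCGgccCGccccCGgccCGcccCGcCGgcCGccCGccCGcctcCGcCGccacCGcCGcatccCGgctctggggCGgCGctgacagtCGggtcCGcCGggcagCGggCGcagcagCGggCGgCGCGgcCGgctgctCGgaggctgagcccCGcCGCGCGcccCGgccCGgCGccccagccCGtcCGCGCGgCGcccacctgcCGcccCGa
The 6 distal or intronic sequences held between 0 and 4 CG dinucleotides in 300 bases. The promoter sequences held 21 (Zc3h12a) and 44 (Wnt4) in 250 bases, against a median of 6.00 over the same stretch of 32851 RefSeq promoters. The Zc3h12a promoter overlaps a B6 H3K4me3 region, whereas the Wnt4 promoter ends just before the NOD H3K4me3 region at that gene.

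Each list was called against the library of the other strain, so it holds only regions with more signal in its own strain, and sites marked equally in both strains are in neither list. For this reason the lists could not be used to check markers of ES cells. H3K4me3 depth was 22750449 tags in NOD and 14791364 tags in B6, a ratio of 1.54, and 2.66% of NOD tags against 1.32% of B6 tags lay in the called regions. The number of regions per strain can follow depth and enrichment, and their part in the counts was not tested. For H3K27ac, library depth is unknown.

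The window held more strain-enriched regions per megabase than the rest of chromosome 4 in all 4 lists. B6 H3K27ac regions stood at 5.88 per Mb against 2.08 per Mb, a ratio of 2.83 (95% interval 2.26 to 3.52). B6 H3K4me3 regions stood at 5.38 against 2.68 per Mb, a ratio of 2.01 (1.60 to 2.50). NOD H3K27ac regions stood at 3.97 against 2.37 per Mb (ratio 1.67, 1.29 to 2.15) and NOD H3K4me3 regions at 7.89 against 4.96 per Mb (ratio 1.59, 1.33 to 1.90). The window is also rich in genes, with 17.1 protein-coding genes per Mb against 7.03 in the rest of the chromosome. Per RefSeq gene, the B6 ratios were 1.47 (1.17 to 1.83) for H3K27ac and 1.04 (0.833 to 1.30) for H3K4me3. The NOD ratios were 0.870 (0.671 to 1.12) for H3K27ac and 0.827 (0.691 to 0.985) for H3K4me3. Per protein-coding gene only B6 H3K27ac stayed above 1, at 1.16 (0.931 to 1.45). Thus the excess of B6 H3K27ac was the only one that remained per RefSeq gene with an interval above 1, and the ratio of NOD H3K4me3 per gene lay below 1.

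**Figure D1:**
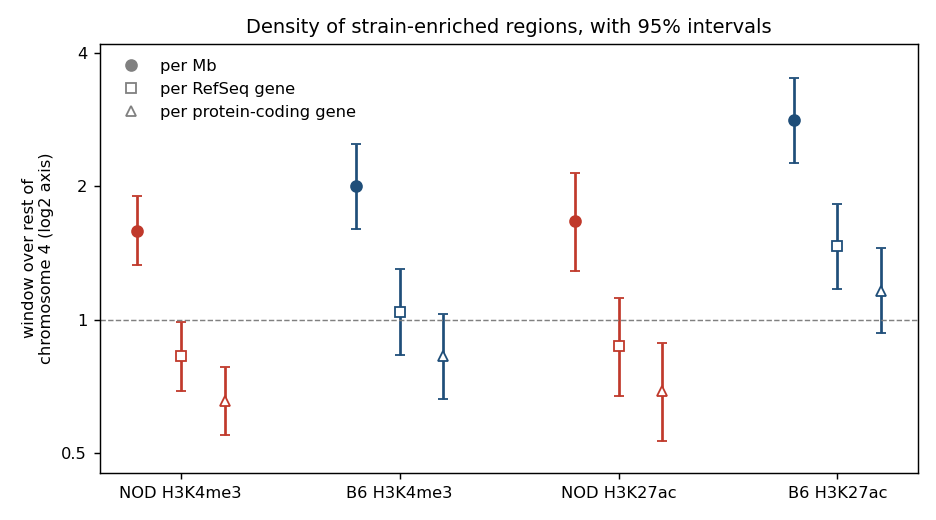
Ratio of the density of strain-enriched regions in the window to that in the rest of chromosome 4 (log2 axis), per Mb (filled circles), per RefSeq gene (squares) and per protein-coding gene (triangles), with 95% counting intervals; NOD lists in red, B6 lists in blue. All 4 ratios per Mb lie above 1, from 1.59 to 2.83, and per RefSeq gene only the ratio of B6 H3K27ac, 1.47, has an interval above 1.

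The marks leaned to different strains. Of the 264 H3K4me3 regions in the window, 59.5% (53.3 to 65.4) were NOD-enriched, close to the 64.9% (61.9 to 67.8) in the rest of chromosome 4 (odds ratio 0.793, 0.596 to 1.06) and the 60.9% on the other autosomes. Of the 196 H3K27ac regions, 40.3% (33.4 to 47.5) were NOD-enriched, against 53.3% (49.2 to 57.3) in the rest of the chromosome (odds ratio 0.592, 0.421 to 0.831) and 52.3% on the other autosomes. So the H3K27ac lists of the window held more B6 than NOD regions, whereas those outside it held slightly more NOD regions. Among H3K27ac regions with a score above 20 the NOD share was 48.1% (34.3 to 62.2) in the window and 61.1% in the rest of the chromosome. Among H3K4me3 regions with at least an 8-fold difference, the NOD share depended on how low counts were treated. With counts under 3 tags in the other strain set to 3, as planned, it was 36.6% (25.5 to 48.9) in the window. In the rest of the chromosome it was then 34.6%. This floor by construction asks for more tags in the deeper NOD library. With no floor, a setting added after seeing the data, the NOD share was 58.5% (50.1 to 66.6) in the window and 62.0% in the rest of the chromosome.

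Strain-enriched regions were spread over the whole window. In bins of 1 Mb, all 4 lists together held between 3 and 55 regions, with a median of 18.5. The fullest bin was chr4:133000000-134000000, with 24 protein-coding genes, among them Arid1a, a chromatin remodelling subunit, and Rps6ka1, a kinase downstream of ERK. It held 21 NOD and 9 B6 H3K4me3 regions and 9 NOD and 16 B6 H3K27ac regions. The emptiest was chr4:131000000-132000000, with 3 regions and 4 protein-coding genes. B6 H3K27ac regions outnumbered NOD regions in 14 of the 20 bins, and NOD H3K4me3 regions outnumbered B6 regions in 14 of 20. The B6 H3K4me3 list had its own peak in chr4:127000000-128000000, with 16 regions against 3 NOD regions. In the first 5 Mb of the window, which hold this bin, the NOD share of H3K4me3 regions was 47.1% (35.1 to 59.4). In the next 5 Mb it was 71.1% (59.5 to 80.9). It was 62.9% (49.7 to 74.8) in the 5 Mb after that and 55.4% (41.5 to 68.7) in the last part.

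**Figure D2:**
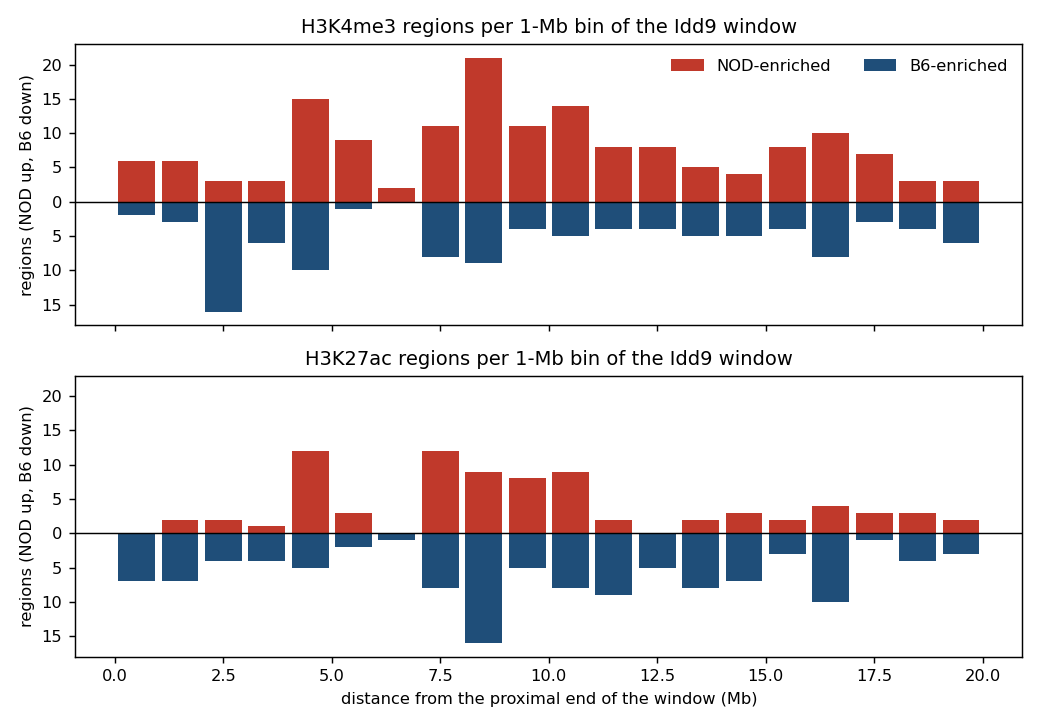
Number of strain-enriched regions in consecutive 1-Mb bins (the last of 0.90 Mb), by distance from the proximal end of the window, for H3K4me3 (top) and H3K27ac (bottom); NOD-enriched regions point up in red and B6-enriched regions down in blue. NOD regions are more numerous in 14 of 20 bins for H3K4me3 and B6 regions in 14 of 20 for H3K27ac, and the third bin holds 16 B6 H3K4me3 regions.

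The NOD H3K4me3 list was led by regions near Epha2 and in Sesn2. The first, 9.80 kb upstream of Epha2, a receptor tyrosine kinase for ephrins (chr4:141289585-141293264, intergenic), held 534 tags in NOD and 86 in B6, which after scaling to library size was a 4.04-fold difference (3.21 to 5.13). An intron of Sesn2, a stress-induced inhibitor of mTORC1 (chr4:132504924-132508618), held 520 NOD tags and 51 B6 tags (6.63-fold, 4.97 to 9.02). An intron of Grik3, a kainate receptor subunit, held 326 NOD and 31 B6 tags (6.84-fold, 4.72 to 10.2). A region between genes, 27.1 kb from the start of Fblim1, held 312 NOD and 49 B6 tags (4.14-fold, 3.06 to 5.72). These regions were wide, between 1531 and 4583 bp, while the median NOD region of the window measured 500 bp and held 34.0 NOD tags.

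NOD-enriched H3K4me3 also lay at coding start sites, meaning a start inside the region or within 1 kb of its midpoint. The Fam43b start held 334 NOD and 42 B6 tags (5.17-fold, 3.74 to 7.31). The start of Adgrb2, an adhesion G protein-coupled receptor, held 237 NOD and 33 B6 tags (4.67-fold, 3.23 to 6.94). At Nbl1, a secreted antagonist of bone morphogenetic proteins, there were 151 NOD and 15 B6 tags (6.54-fold, 3.84 to 12.0). At Wnt4, a Wnt ligand whose CG-rich promoter is shown above, there were 146 NOD and 19 B6 tags (5.0-fold, 3.09 to 8.54). At Alpl, the tissue-nonspecific alkaline phosphatase that is used as a stain for ES cells, there were 88 NOD and 7 B6 tags (8.17-fold, 3.80 to 20.9). Within Lin28a, the RNA-binding protein that blocks let-7 maturation in pluripotent cells, a region 1.09 kb past the start (chr4:134017268-134018186, intron) held 185 NOD and 20 B6 tags (6.01-fold, 3.78 to 10.1). In each of these regions tags were counted in both libraries, with 7 to 42 in B6.

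Other regions were close to empty in B6. In 42 of the 157 NOD regions (26.8%) no B6 tag was counted, against 34.7% in the rest of chromosome 4 (odds ratio 0.687, 0.454 to 1.02). The most NOD tags among them, 78, lay in an intron of Gm10570, 1.68 kb upstream of Fabp3, a fatty acid-binding protein (chr4:130306740-130307370). This region was 16.9-fold higher in NOD with B6 set to 3 tags (lower limit 13.4). Within Fabp3 itself, 1.99 kb past the start, a second region held 104 NOD and 10 B6 tags (6.76-fold, 3.53 to 14.5). A region 7.21 kb upstream of Rcan3, a regulator of calcineurin, held 58 NOD tags and no B6 tag (12.6-fold with B6 set to 3 tags, lower limit 9.90). One 22.7 kb from Arhgef19 held 52 and none (11.3-fold, lower limit 8.84). The Pef1 upstream region held 101 NOD and 3 B6 tags (21.9-fold, 7.28 to 108). With counts of 0 to 3 in B6, the size of these differences is poorly bounded from above.

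The B6 H3K4me3 list was led by Xkr8. Its upstream region, which lies in an intron of Smpdl3b (chr4:132737066-132739378), held 423 tags in B6 and 59 in NOD, an 11.0-fold difference (8.38 to 14.7). A second region over the Xkr8 start held 389 B6 and 147 NOD tags (4.07-fold, 3.36 to 4.95). The start of Zc3h12a, which encodes Regnase-1, a ribonuclease that degrades cytokine mRNAs (chr4:125126577-125128103), held 197 B6 and 57 NOD tags (5.32-fold, 3.94 to 7.27). Sfn, the 14-3-3 sigma protein, held 153 B6 and 23 NOD tags (10.2-fold, 6.57 to 16.6), and Tmem82 held 110 and 36 (4.70-fold, 3.20 to 7.05). The Pramel12 start, of a gene family expressed in germ cells and early embryos, held 106 B6 and 17 NOD tags (9.59-fold, 5.72 to 17.1). A region centred 0.522 kb past the start of Ece1, the endothelin-converting enzyme, held 89 B6 and 27 NOD tags (5.07-fold, 3.26 to 8.11). The median B6 region of the window held 21.0 tags. As in the NOD list, the leading regions held tags of both libraries.

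In 32 of the 107 B6 regions (29.9%, 21.4 to 39.5) no NOD tag was counted, against 40.7% in the rest of chromosome 4 (odds ratio 0.622, 0.378 to 1.01). The most B6 tags among them were 40 in an intron of Oprd1, the delta opioid receptor, and 40 in a region 6.87 kb upstream of Extl1, a glycosyltransferase of heparan sulphate synthesis. Each was 20.5-fold higher in B6 with NOD set to 3 tags (lower limit 15.9). Next came 35 tags in the Dlgap3 intron shown above (17.9-fold with NOD set to 3 tags, lower limit 13.8). Dlgap3, a scaffold protein of synapses, held 5 of the 16 B6 regions of the bin in which this list peaks. Another Dlgap3 region held 99 B6 and 24 NOD tags (6.34-fold, 4.03 to 10.4), and one near its start 26 and 0 (13.3-fold with NOD set to 3 tags, lower limit 10.1). Over the 16 regions of this bin, B6 tags ranged from 11 to 99 and NOD tags from 0 to 24, with no NOD tag in 6 of them.

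**Figure D3:**
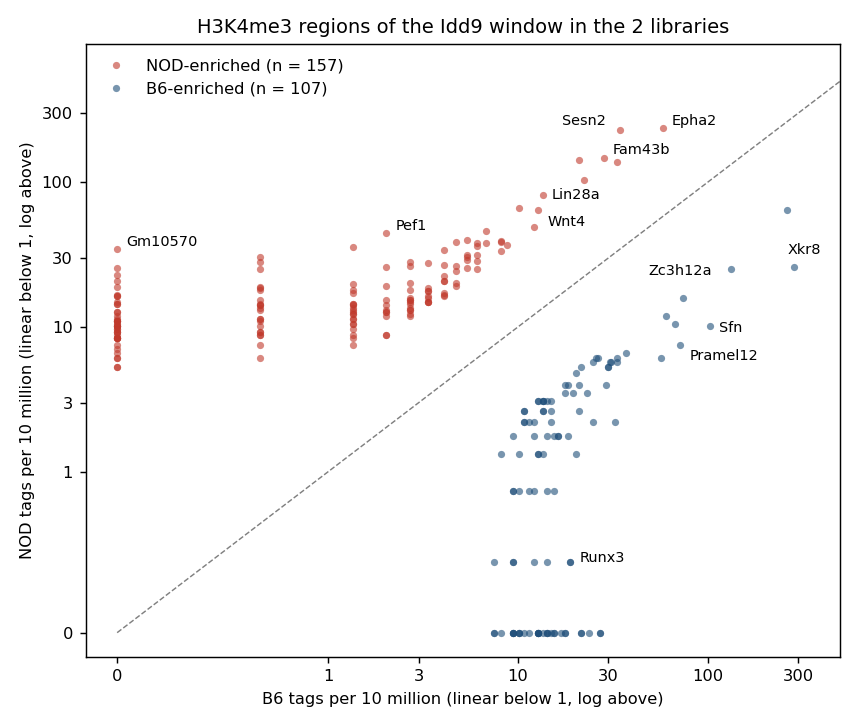
Tags per 10000000 tags of the library in the B6 library (x axis) and the NOD library (y axis) for the 157 NOD-enriched (red) and 107 B6-enriched (blue) H3K4me3 regions of the window, 1 point a region, with both axes linear below 1 and logarithmic above, and a dashed line at equal values. The gap around the line follows from the 4-fold threshold of the lists; 42 red points have no B6 tag and 32 blue points no NOD tag.

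The H3K27ac score is the signal of a strain after subtraction of the other, and its scale is not given in the sources used here. The highest score lay at Laptm5 in B6 and in an intron of Fgr in NOD. In B6, a 9.2-kb region over the start and first part of Laptm5 (chr4:130912928-130922137) had a score of 218.1 and rank 49 of the 5525 B6 regions. The Zc3h12a region (chr4:125125058-125137192) followed with 201.4. An intron of Ephb2, an ephrin receptor, had 161.6, Rps6ka1 had 150.4, a region in Zdhhc18, upstream of Sfn, had 143.9, and Klhdc7a had 117.4. These 6 B6 regions measured between 9209 and 22304 bp.

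In NOD, the highest score was 204.6, in an intron of Fgr, a Src family kinase of myeloid cells (chr4:132993316-132994499), at rank 157 of 6126. The midpoint of this region lay 16.9 kb from the Fgr start, and the deposited annotation names Ahdc1 for it. The Pef1 upstream region (chr4:130101695-130103366) had 184.6, and a second Fgr region, 10.4 kb upstream of the gene, had 146.4. The next scores were 89.50 in an intron of Trim63, a muscle ubiquitin ligase, 89.00 at the start of Luzp1, 88.80 upstream of Marcksl1, 77.50 in an intron of Clic4, a chloride intracellular channel protein, and 65.30 upstream of Zbtb17, which encodes the transcription factor Miz-1. The Zbtb17 region is annotated in the deposited table as an LTR repeat of the ERVK class. Of these 8 NOD regions, 5 measured between 459 and 1671 bp and the widest 11790 bp.

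The deposited table holds a value beside the score whose definition is not given. It was read here as the slope by which HOMER calls super enhancers, and the term is used below for values from 1 upwards. They were found in 13 of the 117 B6 regions of the window (11.1%, 6.05 to 18.3) and in 3 of the 79 NOD regions (3.80%, 0.790 to 10.7). In the rest of chromosome 4 the order was the other way, with 16 of 284 B6 regions (5.63%) and 38 of 324 NOD regions (11.7%). The odds ratio of window against rest was 0.298 (0.0573 to 0.979) for NOD and 2.09 (0.891 to 4.82) for B6. As a result, NOD had 18.8% (4.05 to 45.6) of the 16 super enhancers of the window and 70.4% (56.4 to 82.0) of the 54 in the rest of the chromosome. The 3 in NOD were the Fgr intron, the Fgr upstream region and the Pef1 upstream region. The summed B6 score came to 171 per Mb in the window and 47.1 per Mb outside it, while the NOD sums were 112 and 107 per Mb. Covered length moved in the same direction for B6, at 11946 bp per Mb in the window and 2633 outside, with 14.3 and 17.9 score units per kb of region.

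**Figure D4:**
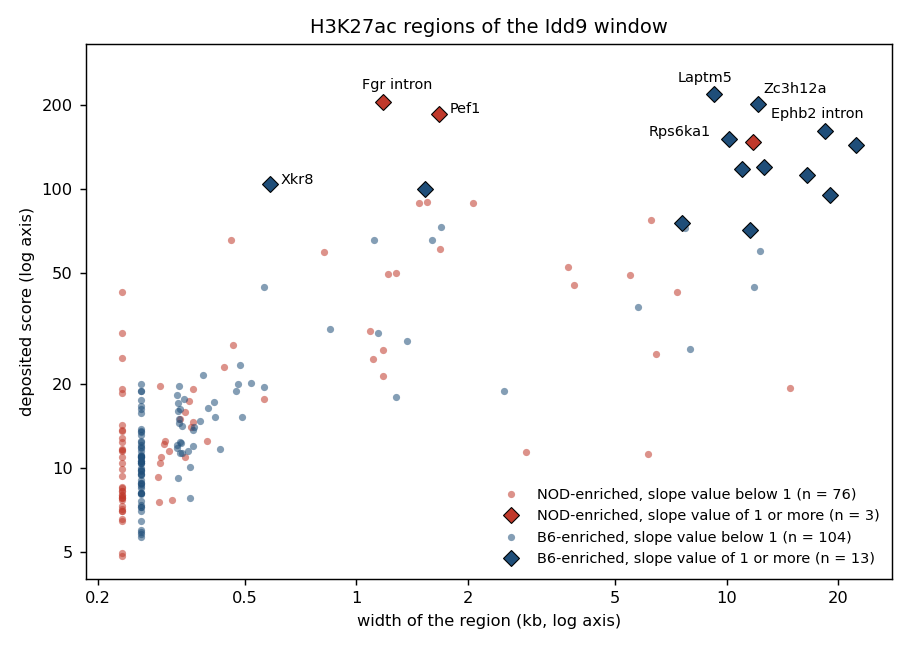
Deposited H3K27ac score against width (both axes logarithmic) for the NOD-enriched (red) and B6-enriched (blue) regions of the window, with diamonds for slope values of 1 or more (3 in NOD, 13 in B6). Of the B6 diamonds, 11 lie at widths from 7560 to 22304 bp, while the Fgr intron and Pef1 diamonds of NOD lie at 1183 and 1671 bp; regions of the minimum width, 233 bp in NOD and 262 bp in B6, form the columns on the left.

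The marks coincided at some regions in both strains. In B6, 16 of 107 H3K4me3 regions (15%, 8.80 to 23.1) overlapped a B6 H3K27ac region, against 4.64% in the rest of chromosome 4 (odds ratio 3.60, 1.63 to 7.90). In NOD it was 5 of 157 (3.18%, 1.04 to 7.28), against 8.27% in the rest (odds ratio 0.365, 0.112 to 0.926). Counted over H3K27ac regions, the odds ratio was 3.06 (1.31 to 7.25) in B6 and 0.525 (0.156 to 1.40) in NOD, so in NOD the interval then included 1. B6 H3K27ac regions also covered more of the window, 11946 bp per Mb against 2633 outside it (NOD 5116 and 4296). The part of this in the overlaps was not tested. The other strain's H3K27ac regions were overlapped by 1.87% of B6 H3K4me3 regions (rest 1.09%) and 0.637% of NOD H3K4me3 regions (rest 0.443%). Besides Xkr8, with 104.0 in H3K27ac score, and Zc3h12a, the B6 overlaps with most tags lay at Tmem82, Laptm5 (46 B6 and 13 NOD tags), the neighbourhood of Zdhhc18 (44 and 12 tags), Gm33901 near Trim62 (43 and 9 tags), Extl1 (40 and 0 tags) and Gm32549 near Camk2n1 (34 and 8 tags). The 5 NOD overlaps were the Pef1 upstream region, a region 15.4 kb upstream of the phosphatase gene Ptp4a2 with 69 NOD tags and 1 B6 tag (44.9-fold, 7.79 to 1797), a region near Zbtb8os (44 and 3 tags), the Luzp1 start (27 and 4 tags) and Aunip (19 and 0 tags).

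At a few places the strains or marks alternated over short distances. A B6 H3K4me3 region with 22 B6 and 5 NOD tags ends inside the NOD regions of both marks upstream of Ptp4a2. In the Fgr intron, a B6 H3K4me3 region with 12 B6 and 3 NOD tags overlaps the NOD H3K27ac region with the highest score. A NOD H3K4me3 region in Zdhhc18 with 55 NOD and 7 B6 tags overlaps the end of the B6 H3K27ac region with a score of 143.9. At Pramel12, with B6 H3K4me3 at its start, a NOD H3K27ac region with a score of 42.70 lies 2.33 kb into the gene. At Pdpn, which encodes the membrane glycoprotein podoplanin, NOD H3K4me3 regions lay on both sides of the start. They held 57 NOD tags and 1 B6 tag (37.1-fold, 6.39 to 1489) and 41 and 2 tags (13.3-fold, 3.46 to 114). With B6 set to 3 tags these were 12.4-fold and 8.89-fold. A B6 H3K27ac region with a score of 72.50 lay in the gene body. Of the NOD H3K4me3 regions of the window, 13 of 157 (8.28%) had a B6 H3K4me3 region within 5 kb, against 3.84% in the rest of the chromosome (odds ratio 2.26, 1.04 to 4.69). Counted from the B6 side, 11 of 107 (10.3%) had a NOD H3K4me3 region within 5 kb, against 6.56% (1.63, 0.695 to 3.61). B6 H3K4me3 regions were also denser in the window, at 5.38 against 2.68 per Mb, and the part of density in these shares was not tested. Of the NOD H3K27ac regions, 6 of 79 (7.59%) had a B6 H3K27ac region within that distance, against 6.48% (1.19, 0.378 to 3.18).

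Of the 340 protein-coding genes that start in the window, 189 had a region of at least 1 list that overlapped the gene or lay within 5 kb of a start site, and 151 had none. B6 H3K27ac regions reached 82 of them (24.1%, 19.7 to 29.0), against 14.9% (12.7 to 17.3) in the rest of chromosome 4 and a background of 14.3% of protein-coding genes on the other chromosomes. B6 H3K4me3 regions reached 66 (19.4%, 15.3 to 24.0; background 16.4%), NOD H3K4me3 regions 84 (24.7%, 20.2 to 29.6; background 24.2%) and NOD H3K27ac regions 52 (15.3%, 11.6 to 19.6; background 16.4%). Apart from B6 H3K27ac, these shares were near the background. Over all 625 RefSeq genes of the window, 111 had a B6 H3K27ac region (17.8%, 14.8 to 21.0; background 8.77%) and 93 a B6 H3K4me3 region (14.9%, 12.2 to 17.9; background 10.8%). A NOD H3K4me3 region was found at 123 (19.7%, 16.6 to 23; background 15.9%) and a NOD H3K27ac region at 68 (10.9%, 8.55 to 13.6; background 10.1%). Over all RefSeq genes, then, the intervals of 3 lists lay above the background of the other chromosomes. In the rest of chromosome 4 the shares were 9.29% for B6 H3K27ac and 10.9% for B6 H3K4me3. They were 18.8% (17.2 to 20.4) for NOD H3K4me3 and 11.3% for NOD H3K27ac. The window share of NOD H3K4me3 was thus close to that of the rest of the chromosome. Only Ahdc1, Luzp1 and Smpdl3b had regions of all 4 lists.

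**Figure D5:**
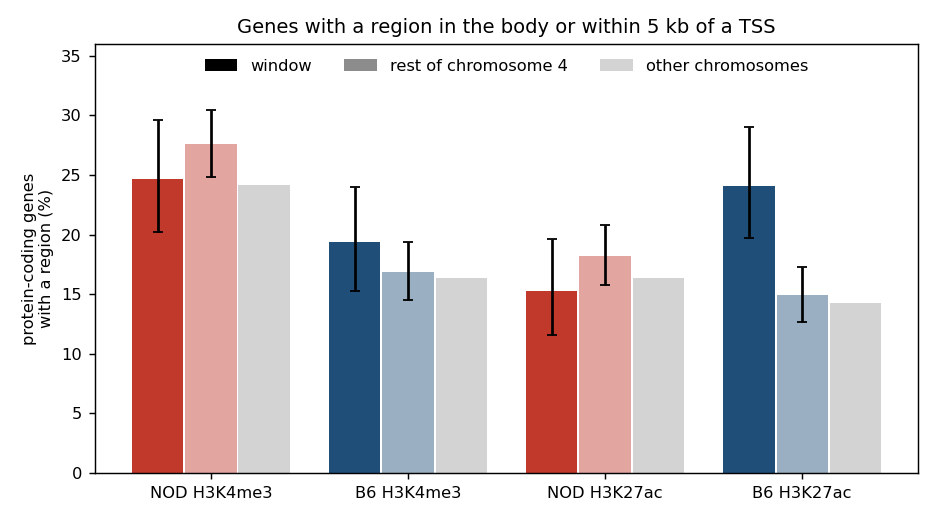
Share of protein-coding genes with a strain-enriched region inside them or within 5 kb of a start site, for genes of the window (full colour), of the rest of chromosome 4 (pale) and of the other chromosomes (grey), with 95% counting intervals where drawn. For B6 H3K27ac the share is 24.1% in the window, 14.9% in the rest of the chromosome and 14.3% elsewhere, and for the other lists the interval of the window includes the value of the other chromosomes.

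Of 25 immune genes in the window, 14 had a region of some list, beside 189 of all 340 protein-coding genes. The gene lists here and below were chosen with earlier results of these data known, so their counts only describe the listed genes. B6 H3K4me3 regions reached 8, B6 H3K27ac regions 6, NOD H3K4me3 regions 4 and NOD H3K27ac regions 4, beside 66, 82, 84 and 52 of the 340. The start of Runx3, a transcription factor of T cells, held 28 B6 tags and 1 NOD tag (43.1-fold, 7.12 to 1761). A region centred 0.441 kb past the start of Padi2, a protein-citrullinating enzyme, held 23 and 2 (17.7-fold, 4.37 to 155). With NOD set to 3 tags, as for empty regions, these were 14.4-fold and 11.8-fold. Csf3r, the granulocyte colony-stimulating factor receptor, held 15 B6 tags and no NOD tag (7.69-fold with NOD set to 3 tags, lower limit 5.52), and Ifnlr1, the interferon lambda receptor, 29 and 8 (5.58-fold, 2.49 to 14.1). Ifnlr1 also had a NOD H3K27ac region, 7334 bp wide and centred upstream of the gene, with a score of 42.50. On the NOD side, Lck held 84 NOD and 13 B6 tags 1.93 kb past a start (4.2-fold, 2.33 to 8.22), Rcan3 held 66 and 8 tags at its start (5.36-fold, 2.57 to 12.9), and a region 4.17 kb past the start of Id3, an inhibitor of helix-loop-helix factors, held 29 and 2 tags (9.43-fold, 2.38 to 81.5). Neither C1qa, C1qb and C1qc, the subunits of complement C1q, nor Cd52 had a region.

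Of 30 regulators of chromatin, RNA and pluripotency, 25 had a region of some list, beside 189 of all 340 protein-coding genes. This list, too, was chosen with earlier results of these data known, so the count is only a description. A region anywhere in the gene body was counted, at Ubr4 as far as 108 kb from the start, and gene length was not taken into account. NOD H3K4me3 regions reached 13 and B6 H3K27ac regions 13, beside 84 and 82 of the 340. B6 H3K4me3 regions reached 4 and NOD H3K27ac regions 7, beside 66 and 52. Besides Lin28a, Alpl and Wnt4, NOD H3K4me3 lay at Ago1, an Argonaute protein (91 NOD and 8 B6 tags, 7.40-fold, 3.60 to 17.6), Sfpq, a splicing factor (69 and 8 tags, 5.61-fold, 2.69 to 13.5), Tcea3, a transcription elongation factor (60 and 4 tags, 9.75-fold, 3.62 to 37.0), and Cdc42, a small GTPase (59 and 3 tags, 12.8-fold, 4.17 to 63.8). Ago1 also had a B6 H3K4me3 region at its start, with 45 B6 and 13 NOD tags (5.32-fold, 2.82 to 10.8), so both directions occurred within a few kilobases. Lin28a likewise had a B6 H3K4me3 region, 5.74 kb past its start, with 14 B6 and 2 NOD tags (10.8-fold, 2.47 to 97.6). The B6 H3K27ac regions of this list were mostly weak, with scores from 7.240 (Spen and Zbtb40) to 19.90 (Arid1a), except for an 11.9-kb region over the start of E2f2, a cell cycle transcription factor, at 44.30. The histone deacetylase gene Hdac1 had a NOD H3K27ac region with a score of 24.70 just upstream of its start.

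Gene families of the window were counted in the same way, with the counts over all 340 protein-coding genes beside them. Of the 5 peptidylarginine deiminases, 4 had a B6 H3K4me3 region, beside 66 of the 340. Padi1 and Padi3 shared 1 (44 B6 and 12 NOD tags, 5.64-fold, 2.93 to 11.7), and that of Padi4 lay 26.1 kb past its start. None of the 5 had a NOD region, beside 84 of the 340 with NOD H3K4me3 and 52 with NOD H3K27ac. Of the 6 secreted phospholipases, Pla2g2e had a B6 H3K4me3 region and Pla2g5 a B6 H3K27ac region, beside 66 and 82 of the 340. Of 24 PRAME family genes in the window, 20 had no region, beside 151 of the 340. NOD H3K4me3 regions lay at Pramel16 (28 NOD and 2 B6 tags, 9.10-fold, 2.30 to 78.8) and Pramel31 (23 and 0 tags, 4.98-fold with B6 set to 3 tags, lower limit 3.74). B6 H3K4me3 regions lay at Pramel12, described above, and Pramel13 (20 B6 and 6 NOD tags, 5.13-fold, 1.99 to 15.6). Since many PRAME genes are near-identical copies, reads at them may be placed or dropped with error, and how the aligner treated them is not given in the sources used here.

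Most regions of the window lay away from annotated starts. Within 1 kb of a RefSeq start lay 19.1% (13.3 to 26.1) of NOD H3K4me3, 20.6% (13.4 to 29.5) of B6 H3K4me3, 19.0% (11.0 to 29.4) of NOD H3K27ac and 15.4% (9.38 to 23.2) of B6 H3K27ac regions, each with an odds ratio against the rest of the chromosome whose interval included 1. The midpoint lay in an intron for 48.4% of NOD and 49.5% of B6 H3K4me3 regions and for 44.3% of NOD and 59.0% of B6 H3K27ac regions. Within 5 kb of a start lay 51.4% of B6 H3K4me3 regions against 31.1% in the rest of the chromosome (odds ratio 2.33, 1.47 to 3.71) and 49.7% of NOD H3K4me3 regions against 39.3% (1.52, 1.06 to 2.20). The window also holds more RefSeq genes, 31.4 against 16.3 per Mb, and the part of this in these shares was not tested. H3K4me3 regions of the window were wider more often, with 31.8% of B6 regions over 500 bp against 14.8% in the rest of the chromosome (odds ratio 2.68, 1.57 to 4.55) and 38.2% of NOD regions against 27.9% (1.60, 1.09 to 2.33). Of the NOD H3K27ac regions, 6 of 79 (7.59%) were annotated in the deposited table as LTR repeats, against 22.8% in the rest of the chromosome (odds ratio 0.278, 0.0951 to 0.672). For B6 these shares were 10.3% and 13.7% (odds ratio 0.719, 0.329 to 1.47). In the central 300 bases, the median GC content was 51.7% in NOD and 53.0% in B6 H3K4me3 regions of the window, against 44.0% and 45% in the rest of the chromosome, and the median number of CG dinucleotides was 6.0 and 7.0, against 3.0 in the rest for both strains. Higher GC content in the window thus went with the lists of both strains, and its part in the densities was not tested.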

How the data were processed

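ChIP-Seq libraries of H3K4me3 and H3K27ac from NOD and B6 ES cells (1 library each) were analysed. Per the study's methods, reads were mapped to mm10 with bowtie2 and analysed with HOMER. The other strain's library was the background, per the file headers for H3K4me3 and by the naming of the deposited tables for H3K27ac. The submitters' processing notes list mm9 and STAR, so which aligner made the files is not settled, but 93.8% of 11562 deposited distances to a start site matched GRCm38.p6 (mm10) within 50 bp. Per the file headers, H3K4me3 regions were stitched from 500-bp peaks with at least a 4-fold difference between strains and a Poisson p-value of 1e-04. The deposited B6 values are tag counts. The other H3K4me3 columns are signal that the authors scaled between libraries, from which whole tags were recovered (within 0.0769 of a whole number). The deposited H3K27ac score is the authors' own-minus-other signal, with a value beside it that was read as a slope. The authors' fold changes and p-values were not used.

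Regions were assigned by midpoint, and genes, starts and sequences taken from RefSeq. Folds are tags per library size, with exact conditional binomial 95% intervals. Shares have exact Clopper-Pearson intervals, and odds ratios conditional exact intervals. A count of 0 was set to 3 tags to give a fold, and the lower limit of the 95% interval for the count of 0 is given beside it. Counts of 1 or 2 were kept unless stated, so their folds cannot be ranked against folds at a count of 0. No p-value was computed, since each group has 1 library. PCR reads are not independent molecules, so intervals cover counting error only. Named regions were the 8 with most tags or highest score per list, the 3 with most tags and none in the other strain, regions of 50 or more tags (on the deposited scale) at coding starts, overlaps of both marks (at most 8 a strain), and members of gene lists. The regions near Fabp3, Ptp4a2 and Dlgap3 and the sequences shown were added after their values were seen. The members and lists were chosen with earlier results of these data known. Alternatives were another density denominator, stricter thresholds, merging, and other distances. Some results of the named-region rule and 1 gene list are not reported here. The functions were tested on simulated data. Python 3.11.15, pandas 2.3.3, scipy 1.17.1 and matplotlib 3.10.9 were used.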

Additional observations from a re-analysis of the deposited data

Results flagged for a closer look

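The marks leaned to opposite strains in the window. NOD regions made up 59.5% of the H3K4me3 regions and 40.3% of the H3K27ac regions, from 1 library each. The H3K4me3 share was close to that elsewhere, with 64.9% in the rest of chromosome 4 and 60.9% on the other autosomes. For H3K27ac these shares were 53.3% and 52.3%, so neither of these parts, taken as a whole, leaned to B6. Other stretches of similar length were not examined. Above a score of 20 the NOD share of H3K27ac regions in the window was 48.1% (34.3 to 62.2). The difference between the marks was not tested, since there was 1 library for each strain and mark, and depth differed between the H3K4me3 libraries and is unknown for H3K27ac.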

How the results depend on the processing

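With 1 library a group, no replicate could be left out. No paired analysis was possible because each strain and mark had 1 library. Of 71 alternative values, 42 stayed within the main interval (for gene counts, within 1.5 times), 23 moved outside it and 6 reversed. The density ratio over the rest of chromosome 4 was most sensitive to the denominator. Per RefSeq gene it was 0.827 in NOD and 1.04 in B6 for H3K4me3, and 0.870 in NOD and 1.47 in B6 for H3K27ac. Per protein-coding gene, chosen after seeing the data, it was 0.655 and 0.826 for H3K4me3 and 0.689 and 1.16 for H3K27ac, because the window holds more genes per Mb. Against the proximal part of the chromosome only it was 1.92 for NOD H3K4me3, and for B6 H3K4me3 it was 2.63 with at least 20 and 2.86 with at least 50 tags. The NOD share of H3K4me3 regions was 69.7% with at least 50 tags. With at least 8-fold it was 36.6% when counts under 3 tags in the other strain were set to 3, which by construction asks for more tags in the deeper NOD library, and 58.5% with no such floor, a setting added after seeing the data. That of H3K27ac regions was 48.1% above a score of 20 and, as settings added after seeing the data, 18.8% among super enhancers and 30.4% at 5 kb or wider. The cause was not tested. A limit of 5 kb in place of 1 kb raised the shares at a start, by construction, to 49.7% (NOD) and 51.4% (B6) of H3K4me3 and to 40.5% (NOD) and 38.5% (B6) of H3K27ac regions. Protein-coding starts alone gave 10.8% for NOD H3K4me3, and at least 50 tags gave 50.0% for B6 H3K4me3, on 10 regions. Counting only genes with a region within 1 kb of a start, which takes in less sequence, left 39 NOD and 31 B6 genes for H3K4me3 and 19 NOD and 34 B6 genes for H3K27ac. Counting an H3K27ac region of the same strain within 5 kb as an overlap raised the shares of H3K4me3 regions, by construction, to 12.7% in NOD and 27.1% in B6, and the B6 share was 30.0% among the 10 regions with at least 50 tags.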
